A study of Homo sapiens with 6 samples.

Results

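Heat shock proteins and cytosolic chaperones were examined in L428 cells, an established line from human Hodgkin lymphoma, after BATF3 had been reduced with an siRNA. The group was a fixed list of 38 genes that covers heat shock proteins, their co-chaperones, the heat shock factors and subunits of the CCT chaperonin, and 36 of them had a probe set of their own among the 18244 genes measured. Where a gene had several probe sets that list no other gene, the brightest on average over all 6 arrays stood for it. AHSA1 and HSF2 were not analysed here. The cells had been nucleofected, a form of electroporation, with 3 µg of BATF3 siRNA or of a negative control siRNA, and were cultured for 48 hours. There were 3 PrimeView arrays for each siRNA, 6 in all, from total RNA of the 1 cell line. One siRNA against BATF3 was used, and the controls had the same nucleofection with a non-targeting siRNA. Whether the replicates were separate cultures is not stated in the labels. The p-values therefore reflect only how these arrays scatter, which may be technical.

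Chaperones bind unfolded or partly folded proteins and keep them from aggregating. HSP70 proteins take up such clients with the help of J domain proteins, and nucleotide exchange factors such as the BAG and HSP110 proteins release them. HSP90 receives clients such as kinases and steroid receptors from HSP70 through adaptor co-chaperones, and the ring-shaped CCT chaperonin folds actin and tubulin. Heat and other proteotoxic stress activate HSF1, a transcription factor that binds repeats of a short element in promoters and raises the inducible chaperones, while the constitutive ones are made in unstressed cells.

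BATF3 itself, the target of the siRNA and a basic leucine zipper factor, read 10.87, 10.76 and 10.69 in the BATF3 siRNA arrays and 11.89, 12.08 and 11.94 in the control arrays (log2 levels of replicates 1, 2 and 3, as in all sentences of this form). It fell by 1.198 (SE 0.095, limma adjusted p = 0.00673). Of the 9 markers listed for Hodgkin cells, 7, among them TNFRSF8 (CD30), lay above the highest background probe set on all 6 arrays, while CD274 did so on only some arrays and CCL22 on none. Of 4 B cell markers measured, PAX5 and CD79B lay above it on all arrays and MS4A1 and CD79A on none. All 16 markers of T and NK cells, myeloid cells, fibroblasts and epithelium lay below it on every array. The GC-rich background probes averaged 5.92 and 5.98 in BATF3 siRNA replicates 2 and 3 and 6.46 to 6.49 on the other 4 arrays. The first principal component held 30.2% of the variance. Control siRNA replicate 2 was the highest control array for 46.0% of all genes, against 27.4% for replicate 1 and 26.7% for replicate 3.

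None of the 36 chaperone genes passed the threshold, an adjusted p under 0.05 over all genes, at which 0.0164% of all genes were called (0.00548% higher and 0.011% lower). The smallest adjusted p among them was 0.709 in limma. At an unadjusted p under 0.05 there were also 0 of 36, where 7.15% of all genes lay (3.73% higher and 3.42% lower), and the smallest unadjusted p was 0.0552 in the same limma fit. The 2 siRNA groups did not overlap for 1 of 36 members, DNAJA2, against 12.1% of all genes (6.36% higher and 5.78% lower). The change was positive for 21 of 36, or 58.3%, against 49% of all genes. The median change was 0.0094 on the log2 scale for the members and -0.0027 for all genes. Most members also differed little in size. The median size of the change, without its sign, was 0.042 among the members and 0.085 among all genes. Of the members, 9 of 36 (25%) differed by 0.1 or more, against 43.2% of all genes. These comparisons were not matched for level. The mean lay above the background median for 35 of 36 members, but for 9427 of the 18244 genes. Whether the members changed less than other genes of like level was not tested.

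All 36 of the 95% confidence intervals held 0, and 34 of 36 lay within 0.5 of 0. For CHORDC1 the interval reached up to 1.498 times the control level. For HSPA6 it reached 1.83 times, but that gene lay below the highest background probe set on every array, so its interval does not bound the change of its transcript. For the other 34 the bounds ran from 0.733 to 1.31 times the control level. A p that misses the threshold does not show that the levels were equal. In these bulk samples of 1 cell line a change in some cells and a smaller change in all cells cannot be told apart. Over 18 alternative settings (17 for HSPA6, which a filter on dim genes removed) only 5 of 36 members (HSPA6, CHORDC1, DNAJA2, BAG4 and BAG1) kept the sign of their change, and no member was called under any of them (smallest limma adjusted p 0.123). For HSPA9, HSPH1, HSP90AA1, TCP1 and HSF1 the sign turned only with the array background as a block, which sets a single BATF3 siRNA array, replicate 1, against the controls. Over the other 17 settings 10 of 36 kept their sign.

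**Figure D1:**
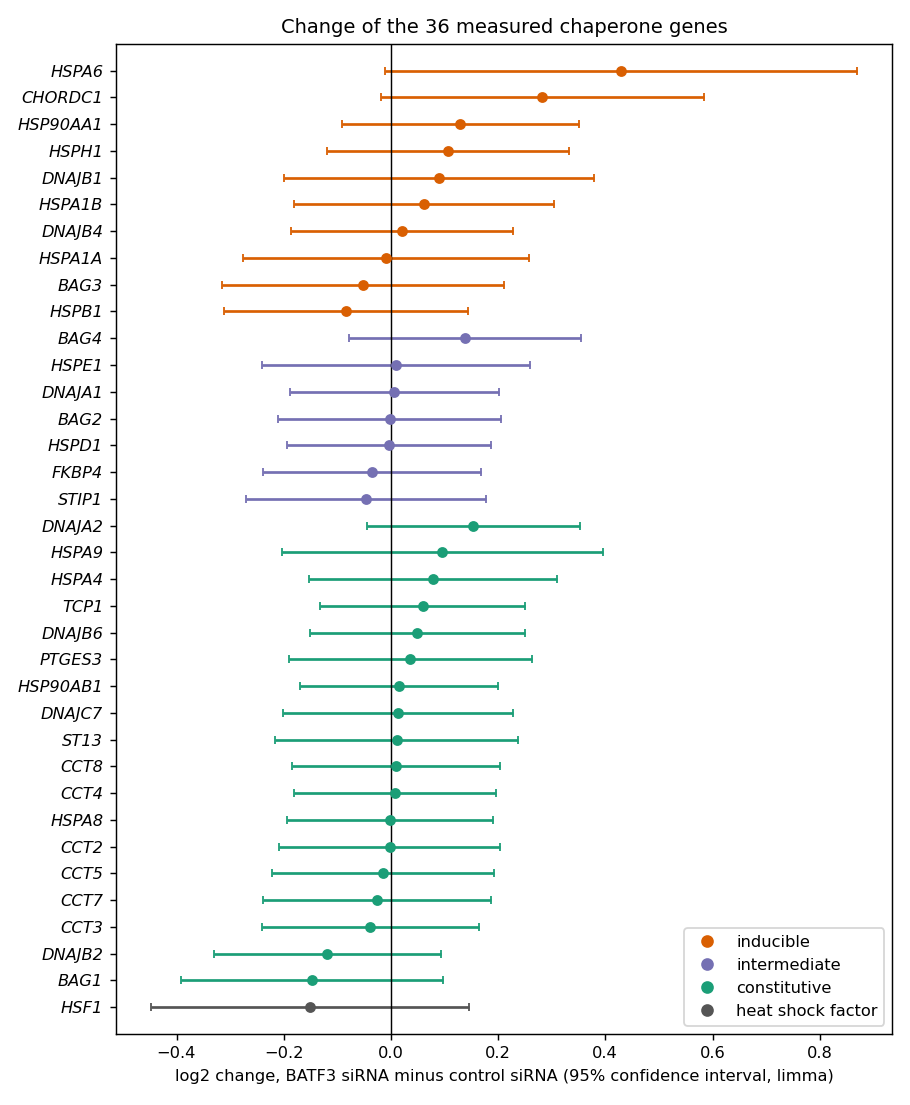
Change of each of the 36 measured chaperone genes, as the log2 level after BATF3 siRNA minus that after control siRNA (horizontal axis), with the 95% confidence interval from limma (bars, n = 3 arrays per siRNA) and colours for the inducible, intermediate and constitutive lists and the heat shock factor HSF1. All 36 intervals cross 0, and HSPA6 and CHORDC1 lie farthest to the right.

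The inducible chaperones were set beside the constitutive ones, to see whether a stress-type response accompanied the knockdown. The inducible list held 10 genes that heat raises strongly, and 7 of 10 had a positive change (median 0.076, mean 0.097). Among the 18 constitutive genes 11 were positive (median 0.0099, mean 0.010). The 7 measured genes placed between these lists had a median of -0.0026. The inducible mean exceeded the constitutive mean by 0.087, and without HSPA6 by 0.050 and without HSPA6 and CHORDC1 by 0.022. With a wider inducible list it was 0.051. The constitutive median turned negative under quantile normalization (-0.0053) and cyclic loess (-0.013).

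On the single arrays the difference, taken against the mean of the controls, was 0.036, 0.17 and 0.051 after BATF3 siRNA and 0.045, 0.071 and -0.12 after control siRNA. The groups overlapped, with BATF3 siRNA replicate 2 high and control siRNA replicate 3 low. Leaving out the former gave 0.043 and leaving out the latter gave 0.029. The spread of this difference between replicates was 0.090 (pooled SD), about as large as the difference itself. With the array background as a block, which leaves BATF3 siRNA replicate 1 against the controls, it was 0.036 and the inducible median was -0.011. The part of the background in this result was otherwise not tested.

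**Figure D2:**
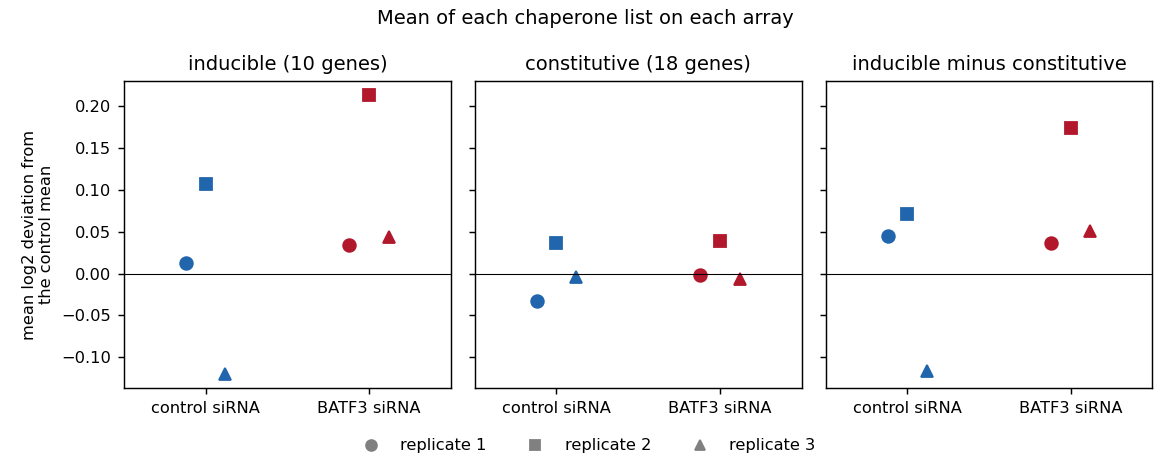
Mean log2 deviation from the control mean (vertical axis) over the 10 inducible genes, the 18 constitutive genes and their difference, with 1 symbol per array and shapes for the replicates. The difference runs from 0.036 to 0.17 after BATF3 siRNA and from -0.12 to 0.071 after control siRNA, so the groups overlap.

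Promoter sequence is what HSF1 reads, and it was used here to see how far the listed genes share the heat shock element. The element was searched as 2 units, GAANNTTC or TTCNNGAA, and as 3 units, in which GAA and TTC alternate with NN, any 2 bases, between neighbours and either may come first, in RefSeq windows of 300 bases (250 before the gene start) in the GRCh38.p14 build. The 3-unit patterns are each other's reverse complement and each 2-unit pattern is its own, so both strands were read, and every 3-unit match holds 2 overlapping 2-unit matches. Windows were found for 34 of the 38 listed genes, not for HSF1, BAG4, FKBP4 and ST13. The 3-unit motif was present for 8 of these 34 genes (17.0% of their 47 windows, against 0.490% of all 35116 windows) and the 2-unit motif for 19 of 34 (42.6% of windows, against 13.5%). By list, 3 of 10 inducible genes, 3 of 17 constitutive genes and 2 of 6 intermediate genes held the 3-unit motif, so it did not belong to the inducible list alone. The 2-unit motif was held by 8 of 10 inducible genes, 7 of 17 constitutive genes and 4 of 6 intermediate genes. A match is a stretch of letters and not a shown binding site. The search allowed no mismatch, so a missing match does not show that the element is absent.

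The stretches around the 3-unit matches that lie before the gene start are printed for 3 inducible and 3 constitutive genes, 5′ to 3′ on the gene's strand, with the matches in capitals. They lie at chr1:161524451-161524493 (plus strand) for HSPA6, chr11:90223072-90223124 (minus) for CHORDC1 and chr14:102087105-102087147 (minus) for HSP90AA1. The constitutive ones lie at chr11:123062164-123062206 (minus) for HSPA8, chr6:44247763-44247858 (plus) for HSP90AB1 and chr7:157336858-157336900 (plus) for DNAJB6.
HSPA6: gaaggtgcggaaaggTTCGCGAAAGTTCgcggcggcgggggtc
CHORDC1: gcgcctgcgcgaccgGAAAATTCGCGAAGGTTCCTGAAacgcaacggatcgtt
HSP90AA1: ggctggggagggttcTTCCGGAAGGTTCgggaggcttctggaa
HSPA8: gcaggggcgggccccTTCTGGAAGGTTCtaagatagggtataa
HSP90AB1: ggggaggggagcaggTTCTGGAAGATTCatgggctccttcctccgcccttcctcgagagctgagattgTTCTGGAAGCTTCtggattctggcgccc
DNAJB6: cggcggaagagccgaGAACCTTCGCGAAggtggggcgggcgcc
The match starts 74 bases before the gene start in HSPA6, 60 in CHORDC1, 88 in HSP90AA1, 55 in HSPA8 and 131 in DNAJB6, and the first of 2 matches in HSP90AB1 starts 165 before. CHORDC1 holds 3 overlapping matches in 1 run. HSPA8 had another match 230 bases before its start, and HSPD1 and DNAJA1 were the other members with the motif. Among the 8 genes with it 6 had a positive change (median 0.032, from -0.0032 in HSPD1 to 0.43 in HSPA6). Among the 11 measured genes with the 2-unit motif only, 6 of 11 were positive (median 0.0082), and among the 13 with neither, 7 of 13 (median 0.0091). HSPA6 and CHORDC1 had the largest positive changes of the list, but HSPA6 lay below the highest background probe set on every array. HSPA8 and HSP90AB1, which carry the same motif, were at -0.00099 and 0.015. Whether the motif bears on the changes was not tested.

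HSPA1A and HSPA1B, neighbours on chromosome 6, encode the main stress-inducible HSP70 and are near-identical copies, so their probe sets may read each other's transcript. Their windows held the 2-unit motif, shown here to compare the copies, at chr6:31815422-31815459 (plus) for HSPA1A and chr6:31827618-31827655 (plus) for HSPA1B.
HSPA1A: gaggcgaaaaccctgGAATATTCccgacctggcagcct
HSPA1B: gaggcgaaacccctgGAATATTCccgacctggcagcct
Over these 38 bases the copies differed at 1, A10C, counted from 1 at the 5′ end of the stretch with the HSPA1A base first. HSPA1A read 10.04, 10.16 and 10.07 against 9.94, 10.35 and 10.00 in the controls. The highest and the lowest array were both controls, and the change was -0.0099 (SE 0.12, limma adjusted p = 0.993). HSPA1B read 11.19, 11.50 and 11.28 against 11.23, 11.38 and 11.18. Replicate 2 was highest under either siRNA and the groups overlapped, with the mean higher by 0.062 (SE 0.11, limma adjusted p = 0.943).

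The probe sets of these copies did not move alike. One that lists both genes read 10.96, 11.44 and 11.24 after BATF3 siRNA and 11.12, 10.91 and 11.04 after control siRNA, a change of 0.19 (SE 0.13). Its lowest array was control siRNA replicate 2. The other that lists both read 11.05, 11.24 and 10.99 against 11.01, 11.31 and 10.99, with a change of -0.012 (SE 0.12), and control siRNA replicate 2 was its highest array. The sign for the inducible HSP70 thus differed between probe sets, and neither of these probe sets had groups apart.

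HSPA6, a strictly heat-inducible HSP70 that is nearly silent in unstressed cells, read 5.77, 5.87 and 5.65 against 5.49, 5.69 and 4.81 in the controls. The groups overlapped at a single pair, since control replicate 2 lay above BATF3 siRNA replicate 3. The change was 0.43 (SE 0.20, limma adjusted p = 0.709), the largest of the list. It was 0.17 without control siRNA replicate 3, and with the background block it was 0.43. On all 6 arrays it lay below the highest background probe set (6.68 to 7.32), so the size of this change is uncertain. A probe set shared with HSPA7 read 5.32, 5.27 and 4.93 against 4.86, 4.98 and 4.57, also with overlap, and was at 0.37 (SE 0.14).

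HSPA8, the constitutive HSC70 that most cells hold in bulk, read 13.27, 13.18 and 13.16 after BATF3 siRNA and 13.22, 13.15 and 13.25 after control siRNA. The arrays interleaved fully, and the change was -0.00099 with a 95% interval of -0.19 to 0.19 (limma adjusted p = 1.000). The other 6 of its 7 probe sets had small positive changes, up to 0.20 in one that lay above the highest background probe set on only 3 arrays. HSPA9, the HSP70 of mitochondria, was at 0.096, positive in all 5 probe sets (from 0.044 to 0.21) although negative with the background block (-0.097).

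HSPA4 and HSPH1 are HSP110 proteins, which exchange the nucleotide of HSP70. HSPH1, the heat-inducible one, read 11.64, 11.89 and 11.75 after BATF3 siRNA against 11.58, 11.76 and 11.61, with overlap and a change of 0.11 (SE 0.10, limma adjusted p = 0.874). All 8 of its probe sets were positive, from 0.083 to 0.35, but none had groups apart. HSPA4 was at 0.079 in the probe set that stood for it. Another of its 4 probe sets read 8.92, 8.77 and 8.76 after BATF3 siRNA and 9.10, 9.26 and 9.16 after control siRNA, all 3 below all 3. Its change of -0.35 (SE 0.096) had the smallest p among the chaperone probe sets (limma unadjusted p = 0.00449, adjusted p = 0.5004 over all 49393 probe sets). This probe set was singled out after its values were seen, and the probe sets of HSPA4 disagreed in sign, 2 higher and 2 lower.

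**Figure D3:**
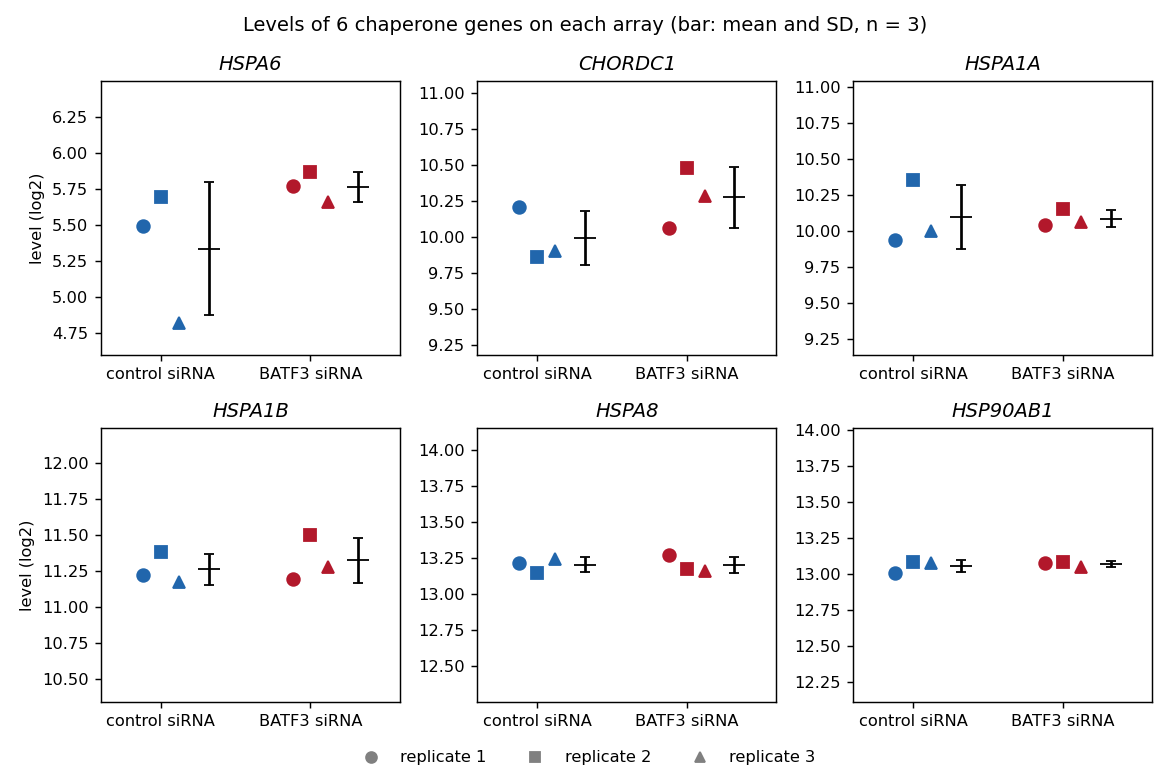
Log2 level (vertical axis, with the same span in each panel) of 6 chaperone genes on each array, by siRNA, with shapes for the replicates and the mean and SD of 3 arrays at the side. HSPA6 has 1 low control (4.81), replicate 2 is the highest array of both groups for HSPA1A and HSPA1B, and HSPA8 and HSP90AB1 spread little.

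HSP90AB1, the constitutive HSP90, read 13.08, 13.08 and 13.05 after BATF3 siRNA and 13.01, 13.09 and 13.07 after control siRNA, with arrays that interleaved and a change of 0.015 (95% interval -0.17 to 0.20), which turned negative under cyclic loess (-0.011). HSP90AA1, the inducible form, read 12.31, 12.52 and 12.51 against 12.39, 12.22 and 12.34. Replicate 1 after BATF3 siRNA lay among the controls, while replicates 2 and 3 lay above. The change was 0.13 (SE 0.098, limma adjusted p = 0.845). With the background block, which leaves BATF3 siRNA replicate 1 against the controls, it was -0.0084. The part of the background in the HSP90AA1 change was not tested. HSPB1, the small heat shock protein HSP27, which holds unfolded proteins for HSP70, read 9.57, 9.43 and 9.41 against 9.50, 9.71 and 9.46, a change of -0.085 with overlap. The chaperonin of mitochondria gave -0.0032 for HSPD1 (HSP60) and 0.0096 for its lid HSPE1 (HSP10).

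Co-chaperones of HSP90 and HSP70 included the gene with the next largest change. CHORDC1, an HSP90 co-chaperone that heat induces, read 10.06, 10.47 and 10.28 after BATF3 siRNA and 10.21, 9.86 and 9.90 after control siRNA. Control siRNA replicate 1 lay above BATF3 siRNA replicate 1, so the groups overlapped. The change was 0.28 (SE 0.13, limma adjusted p = 0.728). Of its 5 probe sets 4 were positive. With the background block it was 0.068, and without replicate 2 of both siRNAs it was 0.12. STIP1 (HOP), which passes clients from HSP70 to HSP90, was at -0.046, and ST13 (HIP), which binds HSP70, was at 0.011. PTGES3 (p23), which closes the HSP90 cycle, was at 0.037, and FKBP4 (FKBP52), an immunophilin of steroid receptor complexes, was at -0.035.

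J domain proteins, which hand clients to HSP70 and start its ATPase cycle, had 6 of 7 positive changes (median 0.020). DNAJA2 read 10.33, 10.48 and 10.45 after BATF3 siRNA and 10.27, 10.32 and 10.21 after control siRNA. It was the only member with its groups apart, by a gap between 10.32 and 10.33, and its change was 0.15 (SE 0.088, limma adjusted p = 0.798). With the background block it was 0.064. The other DNAJA2 probe set was at 0.026, with overlap. DNAJB1 (HSP40), the inducible partner of HSPA1A, read 9.11, 9.32 and 8.96 against 8.96, 9.27 and 8.90, with overlap and a change of 0.089. DNAJB4 read 7.40, 7.52 and 7.47 against 7.56, 7.41 and 7.36, with overlap, and was at 0.020. Another of its 3 probe sets was at 0.28 with groups apart, above the highest background probe set on 2 arrays (limma unadjusted p = 0.0191, adjusted p = 0.631 over all probe sets). DNAJA1 was at 0.0066, DNAJB6 at 0.049, DNAJC7 at 0.014 and DNAJB2 at -0.12.

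BAG proteins release clients from HSP70. BAG3, which is induced by heat and directs HSP70 clients to autophagy, read 9.11, 9.33 and 8.94 after BATF3 siRNA and 9.14, 9.30 and 9.10 after control siRNA. Its groups overlapped fully, and the change was -0.053. BAG1 read 10.44, 10.61 and 10.52 against 10.49, 10.84 and 10.68. The groups overlapped, and the change was -0.15 (SE 0.11, limma adjusted p = 0.843), negative in all 4 probe sets, of which 1 lay below background. BAG4 read 9.33, 9.48 and 9.36 against 9.21, 9.38 and 9.17, with a change of 0.14 and overlap at 1 control array. Of its 3 probe sets the other 2 were slightly lower (-0.044 and -0.0080). BAG2, which inhibits the ubiquitin ligase CHIP on HSP70, was at -0.0026. HSF1 read 7.95, 7.70 and 7.41 against 7.87, 7.78 and 7.87, with the widest spread after BATF3 siRNA, and was at -0.15 (SE 0.13). The HSF1 value turned to 0.11 with the background block.

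The CCT chaperonin had small changes in the probe sets that stood for its genes. Its 7 listed subunits ranged from -0.038 (CCT3) to 0.059 (TCP1), and 3 of them were positive. Their median was -0.0024, and positive after median centring (0.019). CCT6A, a subunit outside the list, was at 0.073 with overlap. TCP1 read 12.49, 12.61 and 12.55 after BATF3 siRNA and 12.45, 12.54 and 12.49 after control siRNA. The arrays overlapped, and its 95% interval was -0.13 to 0.25. CCT2 was at -0.0024, CCT4 at 0.0082, CCT5 at -0.015, CCT7 at -0.026 and CCT8 at 0.0091. Of the 4 CCT4 probe sets 3 were higher and 1 lower, and 1 that was not chosen was at 0.17 with groups apart. A probe set that lists both CCT8 and CCT8P1 was at 0.19, with overlap. Averaged over the 7 listed subunits, the deviation from the control mean was -0.0037, 0.027 and -0.025 after BATF3 siRNA. In the controls it was -0.063, 0.065 and -0.0027, a range that enclosed the BATF3 siRNA values.

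The 36 genes had 117 single-gene probe sets, of which 80 were higher and 37 lower after BATF3 siRNA, so 68.4% were higher against 49.0% of all single-gene probe sets. Among the 81 that had not been chosen to stand for a gene 59 were higher (72.8%), against 21 of 36 chosen ones (58.3%). Of the 66 among them above the highest background probe set on all arrays, 48 were higher (72.7%). Probe sets of a gene share its transcript and are not independent. An unadjusted p under 0.05 was found for 5 of 117 (4.27%), against 7.16% of all probe sets tested one by one. The groups did not overlap for 6 of 117 (5.13%), against 12.2%, and 0 of 117 passed after adjustment (0.0101% of all probe sets did). Of the 27 genes with more than 1 probe set, 13 had the same sign in all of them.

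The chaperones also had a pattern in their spread within each siRNA group. Replicate 2 was the highest of the 3 arrays in both groups for 18 of 36 members (50%), against 15.8% of all genes. After BATF3 siRNA it was highest for 25 of 36 (69.4%, against 30.4% of all genes) and after control siRNA for 23 of 36 (63.9%, against 46.0%). Among the inducible genes it was highest in both groups for 6 of 10, namely HSPA1A, HSPA1B, HSPA6, HSPH1, DNAJB1 and BAG3. HSPA1B stood 0.26 and DNAJB1 0.28 above the mean of the other BATF3 siRNA arrays in replicate 2, and 0.18 and 0.34 above the other controls. BAG3 stood 0.31 and 0.18 above them. Some members went the other way in control siRNA replicate 2, such as HSPE1 (-0.34), PTGES3 (-0.27), ST13 (-0.27) and CHORDC1 (-0.20). Replicate 2 was also highest in both groups for 11 of 38 other cytosolic chaperones (28.9%), 4 of 16 chaperones of the endoplasmic reticulum (25%), 5 of 13 other HSF1 targets (38.5%) and 1 of 12 mitochondrial genes (8.33%). The HSF1 target list shares CRYAB, DNAJA4, HSPA4L and HSPB8 with the other cytosolic chaperones, so their counts are not separate. The pattern is thus not shown to be particular to the listed chaperones. It was noticed in these arrays and carries no test, and the labels do not say what a replicate number stands for.

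**Figure D4:**
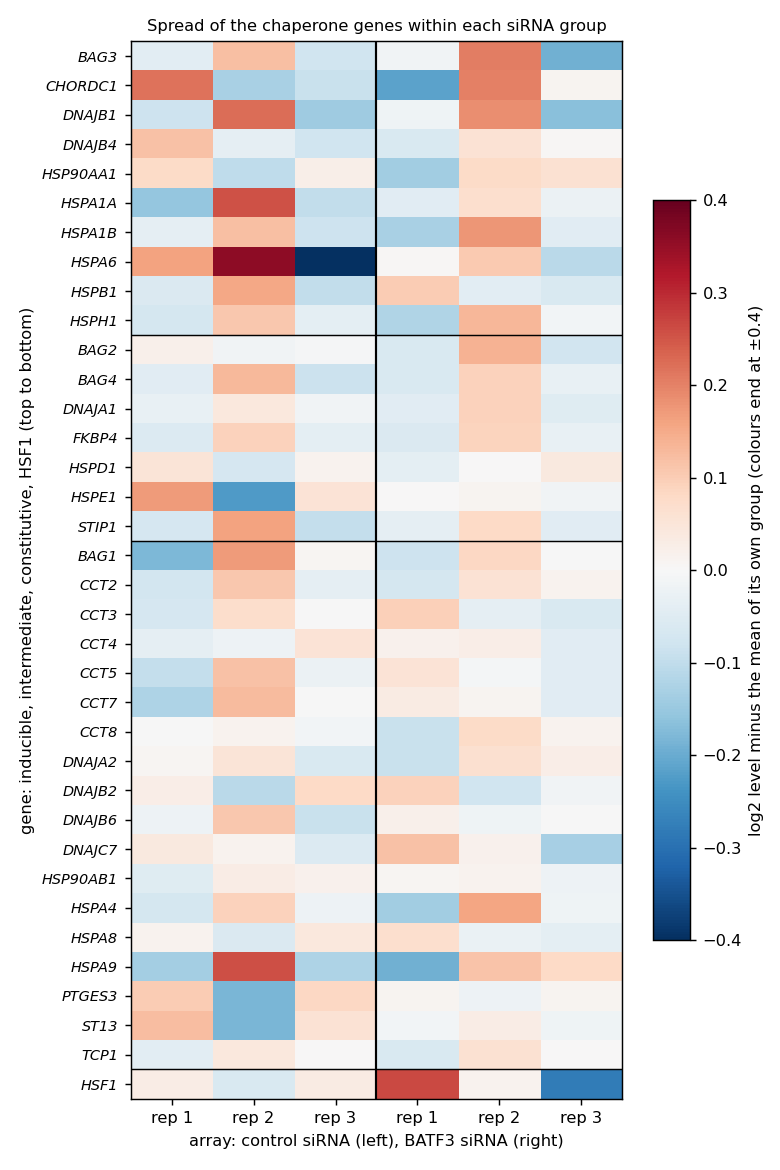
Log2 level of each chaperone gene (rows) on each array (columns) minus the mean of its own siRNA group, red above and blue below, with colours ending at 0.4 in either direction. Replicate 2 is the reddest column of both groups, being highest in both for 18 of 36 genes.

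Without replicate 2 of both siRNAs, an alternative chosen after seeing the data, 0 of 36 members were called (1 at an unadjusted p under 0.05, HSPA6, or 2.78% against 6.5% of all genes) and the inducible minus constitutive difference was 0.079.

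Chaperone genes outside the list were read the same way. Of 38 further cytosolic chaperones and co-chaperones 0 passed (2 before adjustment, by limma), 20 were positive and the median was 0.015. FKBP5, an HSP90 immunophilin that glucocorticoids induce, was at 8.70 ± 0.094 against 8.44 ± 0.12 (mean log2 level ± SD, n = 3 each). The groups lay apart by 0.26 on average (limma adjusted p = 0.642). VBP1, a prefoldin subunit, was at 0.20, also with groups apart. In the endoplasmic reticulum 0 of 16 passed (0 also at an unadjusted p under 0.05) and 11 were positive (median 0.053), with CRELD2 at -0.20 and DNAJB9 at 0.30. In mitochondria 0 of 12 passed (0 also before adjustment) and 8 were positive (median 0.063), with GRPEL2 at 0.22 and CLPX at 0.19.

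Of 13 other target genes of HSF1 0 passed (1 at an unadjusted p under 0.05) and 9 were positive (median 0.028). IER5, an immediate early gene whose product binds HSF1, was at 8.58 ± 0.029 against 8.21 ± 0.13 (mean log2 level ± SD, n = 3 each). Its groups did not overlap and the change was 0.38 (SE 0.095, limma unadjusted p = 0.00290, adjusted p = 0.446). CRYAB, a small heat shock protein, was at -0.14, below the highest background probe set on every array.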

How the data were processed

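Values were log2 levels per probe set, deposited by the authors in 1 table of 49495 probe sets, 102 of them controls. The log base was inferred from their range (array medians 6.24 to 6.33). The affy package for R is named, per the submitters' processing notes, and the background correction, normalization and summarization were not given in any source used. Values were used as deposited. Of the others 45278 list 1 gene, 1333 several and 2782 none, through platform symbols looked up by Entrez identifier in RefSeq (GRCh38.p14).

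Groups came from the sample titles. Differences were fitted over all 18244 genes with limma 3.58.1 in R 4.3.3 (two-sided, no covariate, Benjamini-Hochberg, threshold 0.05). The number of arrays limits the precision (median SE 0.107). The fit was also run on simulated data with 200 changed genes. It called 31 of 73 genes changed by 0.5 log2, 62 of 70 changed by 1 and 56 of 57 changed by 2. Of its 153 calls 4 were false, and changes under 0.5 were not simulated. With so many calls the adjustment is milder than in the real data, where 3 genes were called. These shares may therefore overstate what the real comparison could call. Members, lists and alternatives were chosen with earlier results of these data known. All measured members were named. Values per array were given for the inducible list, HSPA8, HSP90AB1, the 6 smallest p and the listed CCT subunit farthest from 0. Of each further list 2 genes were named, besides CCT6A and the genes that 2 lists share. Lists are described by counts and medians, with no test. Alternatives covered normalization, dim-gene filters, probe set choice, weighting of arrays, a robust prior with a trend, blocks and leaving out arrays.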

Additional observations from a re-analysis of the deposited data

How the results depend on the processing

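No chaperone gene was called under any of the 18 alternative settings. The 4 list values (the inducible, constitutive and CCT medians and the inducible minus constitutive difference) moved by less than their spread between replicates under each. That does not show them to be stable. The spread of the difference was about as large as the difference itself, and all 3 medians changed sign under some setting. With the replicate number as a block 3 genes were called, as without it. In that limma fit 1 member was at an unadjusted p under 0.05 (2.78%, against 7.14% of all genes). Deviations of same-numbered arrays correlated at 0.029, 0.15 and -0.025. Other pairs of arrays were not compared, so whether the numbers pair the arrays is not settled. The members at an unadjusted p under 0.05 in limma numbered 1 under each of quantile normalization, median centring and cyclic loess (2.78%, against 7.08%, 7.07% and 7.09% of all genes). They numbered 1 with the filter above the background median (2.86%, against 8.97%) and 2 with an intensity trend and robust prior (5.56%, against 7.09%). With the most variable probe set there were 3 (8.33%, against 6.85% of all genes in that fit). With array weights there were 6 (BAG4, CHORDC1, DNAJA2, DNAJB2, HSPA6 and HSPA9, or 16.7%, against 18.2% of all genes). When arrays were left out they ran from 0 to 2 (0% to 5.56%, against 4.67% to 10.6% of all genes). Members with groups apart numbered 0 under quantile normalization (12.3% of all genes) and 3 (8.33%) with the mean of all probe sets or the most variable one (13.3% and 12% of all genes). When arrays were left out they numbered 1 (2.78%, against 18.1% of all genes, without control siRNA replicate 3) to 15 (41.7%, against 35% of all genes, without replicate 2 of both siRNAs), and 12 without control siRNA replicate 2 (33.3%, against 25%). The genes called over all were 6 with a mean of at least 5, 8 above the background median, 5 with the most variable probe set, 25 with array weights, 12 with the trend, 0 with the background block and 0 to 2 when arrays were left out.

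Of 36 members 31 changed sign somewhere, 5 of them only with the background block, which leaves 1 BATF3 siRNA array against the controls. HSPA1A was at 0.012 after median centring, 0.14 with the mean of all probe sets, 0.28 with the most variable one and 0.079 with array weights. Its most variable probe set lay below background on all 6 arrays and also enters the mean, so neither of those values measures its change. HSPA8 was at 0.021, 0.066 and 0.20 under the first 3 of these and 0.065 with the background block. That block also gave -0.068 for HSPA1B, -0.013 for HSPH1, -0.0084 for HSP90AA1, 0.018 for HSPB1, -0.041 for DNAJB4 and -0.0020 for TCP1, and cyclic loess gave -0.011 for HSP90AB1. Leaving out arrays gave ranges of -0.088 to 0.12 for HSPA1A, -0.026 to 0.13 for HSPA1B, -0.034 to 0.020 for HSPA8, -0.0094 to 0.030 for HSP90AB1, -0.0040 to 0.20 for DNAJB1, -0.026 to 0.079 for DNAJB4, -0.16 to 0.043 for BAG3 and -0.14 to 0.014 for HSPB1. The cause of these changes was not tested. HSPA6 was not tested above the background median, since it lies under it.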
